A study of Oryza sativa with 4 samples.

Results

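Among 45027 rice loci counted by RNA-seq in young panicles, 4 were nearly without reads in wild-type (WT) plants and clearly counted in plants mutant in the Polycomb gene EMF2B. They were chosen by their values: at most 0.1 counts-per-million (CPM) in both WT libraries and at least 3 CPM in both emf2b libraries. The 4 are LOC_Os03g63280 on chromosome 3, LOC_Os08g30990 on chromosome 8, and LOC_Os10g01900 and LOC_Os10g08474 on chromosome 10. Because these values chose the loci, their difference between the genotypes is a description, and no test of it is used as support. None of the 4 was free of WT reads, so "silent" here means near the limit of counting.

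Polycomb repressive complex 2 (PRC2) places the mark H3K27me3 on histone H3, and the mark goes with stable repression of genes outside the tissue or stage where they act. EMF2 proteins are subunits of this complex in plants, and their loss in plants is known to disturb flower development. Loci that carry the mark are often not transcribed at all in a given organ, so reads that appear in a PRC2 mutant where WT has almost none are one place to look when such a gene is mutated.

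The panicles came from the cultivar Dongjin, grown in a greenhouse, and were taken at inflorescence stage 7, at a length of 0.3 to 1.5 cm. The 2 groups were WT and emf2b, whose genotype label gives the allele emf2b-1, with 2 libraries each, and no other treatment or allele is labelled. WT libraries are called ACCC and CGTA after their barcodes and held 25382519 and 32087683 counted reads, and emf2b libraries GAGT and TTAG held 12932305 and 16926873. No label says whether the libraries of a genotype came from separate plants, so the spread between them may be technical.

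LOC_Os09g13630, taken here as EMF2B from general knowledge because neither the deposited table nor the reference gene table pairs the name with it, was at 37.1 and 38.8 CPM in WT ACCC and CGTA and at 9.90 and 11.9 CPM in emf2b GAGT and TTAG. Its reads were therefore reduced in both libraries labelled emf2b, and not lost. Of the 8 listed genes of panicle meristem and spikelet, all were in the table and their summed level was 236 to 319 CPM per library, while the 4 anther and pollen genes summed to 0.218 to 0.473 CPM and the 3 root genes to 0.464 to 1.65 CPM. The anther and pollen sum leaves out better counted anther genes of the longer gene list used below. Levels of MEL1 were 84.1 (WT ACCC), 96.4 (WT CGTA), 13.5 (emf2b GAGT) and 14.7 CPM (emf2b TTAG). In the same order, MSP1 had 105, 109, 56.6 and 80.7 CPM, and EAT1 had 1.42, 0.592, 1.93 and 7.68 CPM. Other anther genes of that list, such as TDR, were near 0. The spikelet gene FZP was at 0 reads in both WT libraries. Within the panicle sum, single genes differed in direction. OsMADS1 was at 22.8 and 31.4 CPM in WT ACCC and CGTA and at 8.43 and 6.68 CPM in emf2b GAGT and TTAG. RFL was at 37.9 and 26.2 CPM in WT ACCC and CGTA and at 40.4 and 68.2 CPM in emf2b GAGT and TTAG. The 5 leaf genes summed to 19.3 and 29.8 CPM in WT and to 27.3 and 62.9 CPM in emf2b, highest in TTAG. The 8 counted seed genes summed to 8.59 to 10.98 CPM. This sum leaves out VP1 and LOC_Os11g26790, seed-listed loci that were higher in emf2b and are given below. The part of other cell types in the results below was not tested. In such whole panicles, fewer cells of a type and less RNA per cell cannot be told apart.

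LOC_Os10g01900 had the highest mean level of the 4. It had 43 reads in emf2b GAGT and 122 in emf2b TTAG, against 2 in WT ACCC and 1 in WT CGTA. In CPM these were 3.33, 7.21, 0.0788 and 0.0312. The 2 mutant libraries thus stood far above both WT libraries, and TTAG was the higher of the pair. Pooled over the libraries of a genotype, the depth-adjusted ratio of emf2b to WT was 106, with an exact 95% interval of 35.6 to 519 that covers counting error only.

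LOC_Os08g30990 had 41 and 105 reads in emf2b GAGT and TTAG and a single read in each WT library. Its levels were 3.17 and 6.20 CPM in emf2b and 0.0394 and 0.0312 CPM in WT. The ratio of emf2b to WT was 141 (exact 95% interval 38.2 to 1171), the highest point estimate of the 4, although the intervals of all 4 overlapped.

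LOC_Os03g63280 had 40 and 71 reads in emf2b GAGT and TTAG, no read in WT ACCC and 2 reads in WT CGTA. Its emf2b levels, 3.09 and 4.19 CPM, were the most even of the 4. Its WT levels were 0 and 0.0623 CPM, and 3 reads, the limit that a count of 0 allows, correspond to 0.118 CPM in WT ACCC. The ratio was 107 (exact 95% interval 28.9 to 893).

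LOC_Os10g08474 had 39 and 91 reads in emf2b GAGT and TTAG and 1 and 3 reads in WT ACCC and CGTA. It lay closest to both limits of the rule, at 3.02 CPM in emf2b GAGT and 0.0935 CPM in WT CGTA, with 5.38 CPM in emf2b TTAG and 0.0394 CPM in WT ACCC. The ratio was 62.6 (exact 95% interval 23.9 to 233), the lowest of the 4.

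**Figure D1:**
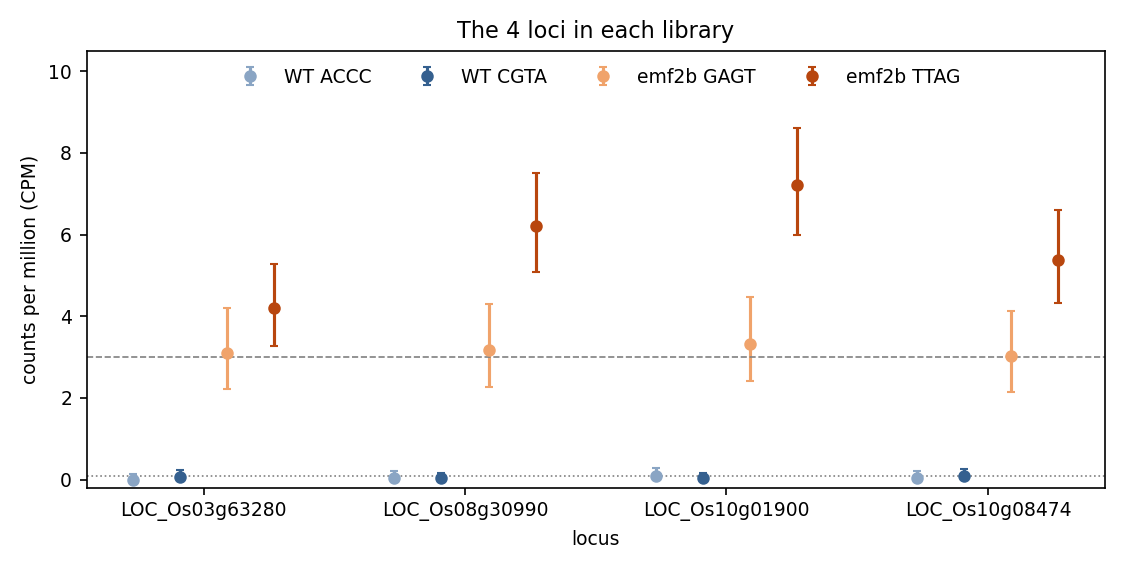
Level in counts-per-million (CPM) of the 4 loci in each of the 4 libraries; points are single libraries, bars are exact 95% Poisson intervals of the read count, and the dashed and dotted lines mark 3 and 0.1 CPM. The emf2b GAGT values sit between 3.02 and 3.33 CPM, just above the upper line, the emf2b TTAG values between 4.19 and 7.21 CPM, and all WT values at or below 0.0935 CPM.

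The group means were 5.27 ± 2.75 CPM for LOC_Os10g01900, 4.69 ± 2.14 CPM for LOC_Os08g30990, 4.20 ± 1.67 CPM for LOC_Os10g08474 and 3.64 ± 0.779 CPM for LOC_Os03g63280 in emf2b (SD, n = 2 each), and 0.0312 to 0.0664 CPM in WT. Neighbours in this order differed by less than the SD between the emf2b libraries, so the 4 levels have no firm ranking. On the log2 scale the fitted differences were 6.46 ± 0.75, 6.82 ± 0.74, 5.78 ± 0.70 and 6.48 ± 0.85 (SE, edgeR, emf2b minus WT) in the order LOC_Os10g01900, LOC_Os08g30990, LOC_Os10g08474 and LOC_Os03g63280. All 4 were among the loci called higher in emf2b by the edgeR quasi-likelihood test over 22615 loci (Benjamini-Hochberg threshold 0.05), where 11.5% were called higher and 1.86% lower. As the rule used this contrast, nothing is read from that count. With WT counts of 0 to 3 reads the size of the difference hung on single reads: without WT CGTA, LOC_Os03g63280 is left with no WT read, and its fitted value moved to 9.05.

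Emf2b TTAG was the higher mutant library at all 4 loci. The TTAG to GAGT ratio of CPM was 2.17 (exact 95% interval 1.52 to 3.14) at LOC_Os10g01900, 1.96 (1.35 to 2.88) at LOC_Os08g30990, 1.78 (1.21 to 2.67) at LOC_Os10g08474 and 1.36 (0.908 to 2.05) at LOC_Os03g63280. The interval of LOC_Os03g63280 includes 1. The same lean was present in weak loci at large: over all 18565 loci at most 0.1 CPM in both WT libraries, the summed CPM ratio of TTAG to GAGT was 1.81, whereas the median ratio over 13761 tested loci averaging at least 5 CPM was 1.02.

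The 4 loci were the upper edge of a wide field of weakly counted loci and not a separate group. Of the 18565 loci near silence in WT, 41.2% of the table, the median had 1 read in emf2b GAGT and 2 in emf2b TTAG. Their 99th percentile was 1.39 CPM in GAGT and 2.24 CPM in TTAG, below the limit of 3 CPM. In GAGT alone 14 of these loci reached 3 CPM, and in TTAG alone 68 did. As the minimum in both emf2b libraries was raised from 0.5 to 1, 2, 2.5, 3 and 4 CPM, the number of loci fell from 896 to 261, 33, 10, 4 and 0.

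**Figure D2:**
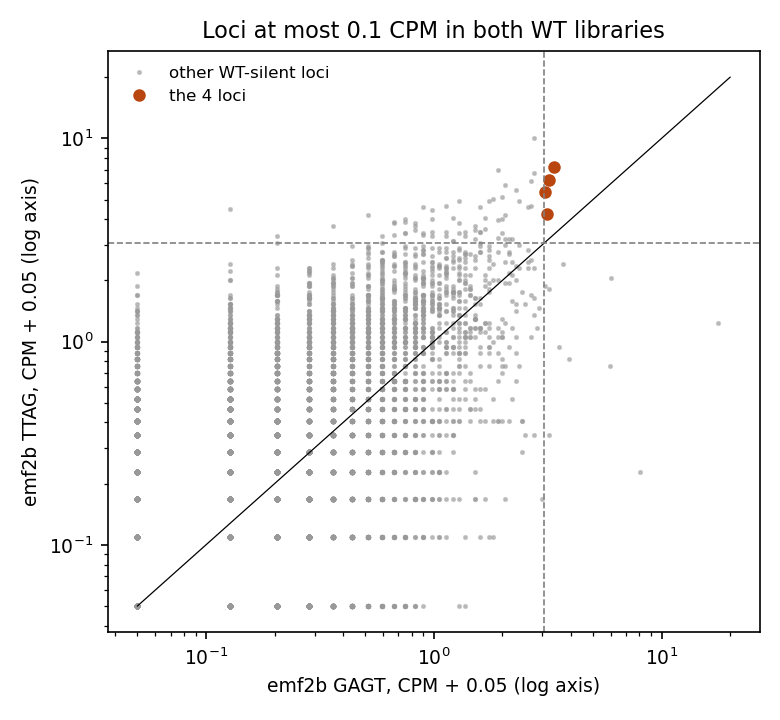
Level of the 18565 loci at most 0.1 CPM in both WT libraries, in emf2b GAGT (x) against emf2b TTAG (y), each as CPM + 0.05 on a log axis; each point is a locus, dashed lines mark 3 CPM and the solid line equal levels. The 4 loci, in orange, sit just inside the corner of the dashed lines at the end of a continuous cloud, most of whose stronger points lie above the line of equal levels.

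Just outside the emf2b limit stood LOC_Os12g24450, with 35 and 114 reads in emf2b GAGT and TTAG and 1 and 3 in WT ACCC and CGTA, and LOC_Os12g18920, with 35 and 169 against 2 and 1. Both were at 2.71 CPM in GAGT, and LOC_Os12g18920, at 9.98 CPM, was the strongest of all WT-silent loci in TTAG. Just outside the WT limit stood LOC_Os07g31990, with 70 and 121 reads in emf2b and 3 and 1 in WT, and LOC_Os02g01840, with 59 and 166 against 3 and 0. The third read in WT ACCC, 0.118 CPM, kept these 2 loci out, although their emf2b levels of 5.41 and 7.15 CPM and of 4.56 and 9.81 CPM exceeded those of most members. In GAGT the exact 95% intervals of all 4 members reached below 3 CPM (lowest bounds 2.14 to 2.41 CPM), and 21 WT-silent loci outside the rule had intervals that reached 3 CPM in both emf2b libraries. By counting error alone the 4 could not be separated from those 21.

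The opposite pattern was not found. With the genotypes exchanged, 0 loci were at most 0.1 CPM in both emf2b libraries and at least 3 CPM in both WT libraries, and 0 reached a minimum of 1 CPM, against 261 in the direction of the rule. The limits are not of equal strictness in the 2 directions: 0.1 CPM allows at most 1 read in each emf2b library, and 2 reads in WT ACCC and 3 in WT CGTA. Between libraries of the same genotype, 9 loci were at most 0.1 CPM in WT CGTA and at least 3 CPM in WT ACCC, 0 the other way round, 1 was near silent in emf2b GAGT and expressed in TTAG, and 0 the reverse. Between genotypes, single pairs of libraries gave 46 to 240 loci near silent in WT and expressed in emf2b, and 1 or 2 the other way round.

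**Figure D3:**
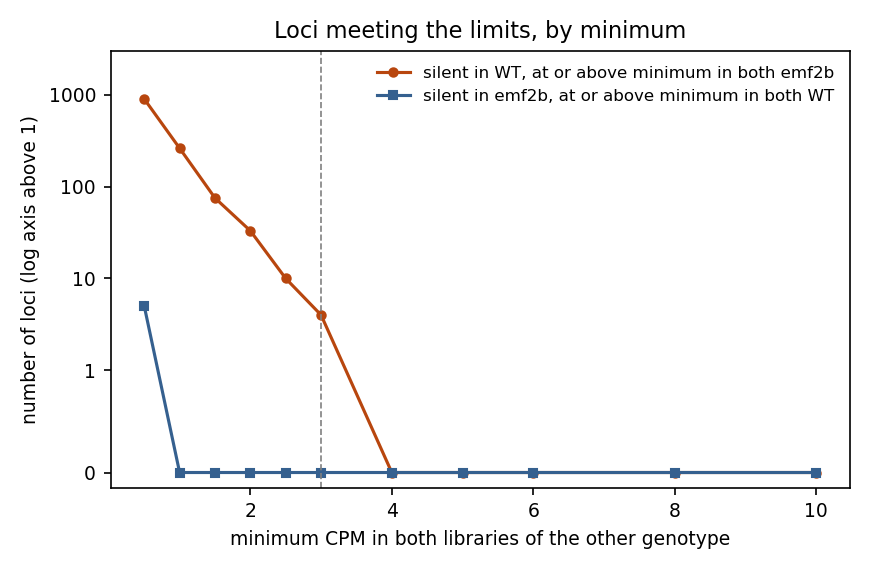
Number of loci at most 0.1 CPM in both libraries of one genotype and at or above a minimum CPM (x) in both libraries of the other; the y axis is logarithmic above 1 and includes 0, and the dashed line marks the minimum of 3 CPM. The count silent in WT falls steadily from 896 at 0.5 CPM to 4 at 3 CPM and 0 at 4 CPM, while the count silent in emf2b is 5 at 0.5 CPM and 0 from 1 CPM on.

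Weak reads were more widespread in the mutant libraries as a whole. Loci with at least 1 read numbered 35614 in emf2b GAGT and 41111 in TTAG, against 31678 in WT ACCC and 30611 in CGTA, although the WT libraries were deeper. With every library thinned to the 12932305 reads of GAGT, the numbers were 35614, 39758, 28658 and 27130. The WT-silent loci took 0.274% of the reads of GAGT and 0.495% of those of TTAG, while the 7204 loci at most 0.1 CPM in both emf2b libraries took 0.0190% and 0.0138% of the reads of WT ACCC and CGTA. The part of this spread of weak reads in the values of the 4 loci was not tested.

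The 4 loci were scattered over the genome. Chromosome 10, with 6.17% of the table's loci, held 2 of them, chromosomes 3 and 8 held 1 each (10.6% and 7.40% of the table), and the other 9 chromosomes none. On chromosome 10, LOC_Os10g01900 and LOC_Os10g08474 were separated by 448 other loci of the table in the order of their identifiers. The wider set of 261 WT-silent loci with at least 1 CPM in both emf2b libraries fell on all 12 chromosomes, from 16 loci on chromosome 9 to 32 on chromosome 11 (12.3% of the set, against 8.67% of all WT-silent loci), with 1 pair of adjacent loci. The nearest of these to each of the 4 lay 30 table loci away for LOC_Os03g63280 and LOC_Os08g30990, 43 for LOC_Os10g01900 and 89 for LOC_Os10g08474. These distances leave out loci above the WT limit, such as LOC_Os10g01860, which lay 4 table loci from LOC_Os10g01900 and is described below.

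Of the loci directly beside the 4, none of those tested was called. Neighbours are the nearest loci of the table by identifier, since the order of MSU-type identifiers follows the chromosome and the table gives no coordinates. Of the 8 loci directly beside a member, 4 had enough reads to be tested and 0 were called in either direction (edgeR, 11.5% of all tested loci called higher; DESeq2 also called 0 higher, and 1 of the 4 had an unadjusted edgeR p under 0.05). LOC_Os03g63270, on one side of LOC_Os03g63280, had 47 and 53 reads in emf2b GAGT and TTAG and 22 and 53 in WT ACCC and CGTA, a log2 difference of 1.38 ± 0.49 (SE, edgeR adjusted p = 0.116). LOC_Os03g63290, on the other side, had 53 and 44 against 71 and 86 (0.25 ± 0.42). LOC_Os08g30980 and LOC_Os08g31000, beside LOC_Os08g30990, had 0.75 ± 0.47 and -0.38 ± 0.51. The 4 direct neighbours of the chromosome 10 members had 2 to 22 reads per emf2b library and 0 to 4 per WT library, too few to be tested; with no low-count filter, 1 of the 8 direct neighbours was called higher.

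The surroundings differed between the members. LOC_Os03g63280 lay among loci counted well in both genotypes: of its 10 nearest table loci, LOC_Os03g63250, LOC_Os03g63300 and LOC_Os03g63330 each had between 243 and 1733 reads in every library, and their log2 differences were -0.08 ± 0.18, -0.56 ± 0.21 and -0.48 ± 0.23 (SE), none past the test. LOC_Os08g30990 also had counted neighbours, such as LOC_Os08g30930 at -0.15 ± 0.23. Each also had weak ones, such as LOC_Os03g63230 with 2 reads and LOC_Os08g30960 with none in each WT library. Of the loci within 5 table loci of the chromosome 10 members, LOC_Os10g08540 had 36 and 50 reads in WT ACCC and CGTA, and all others at most 7 in a WT library. Beside LOC_Os10g01900, LOC_Os10g01870 and LOC_Os10g01880 had no read in emf2b GAGT or in WT and 3 and 1 reads in emf2b TTAG.

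Within 5 table loci on each side there were 40 neighbours, of which 19 were tested and 4 called higher and 0 lower, where 11.5% of all tested loci were called higher. All 4 had at most 7 reads in a WT library and entered the test through their emf2b reads. The count is therefore not read against that share, and the calls below are descriptions. LOC_Os10g01860, 4 table loci from LOC_Os10g01900, rose in emf2b, with 63 and 159 reads in emf2b GAGT and TTAG and 7 and 6 in WT ACCC and CGTA (log2 difference 4.89 ± 0.55 SE, edgeR adjusted p = 0.00805), and was called in all 9 fits tried. With 4.87 and 9.39 CPM in emf2b it was as strong as LOC_Os10g01900 itself, and it missed the rule only by its WT level of 0.276 and 0.187 CPM. The other calls were weaker in reads. LOC_Os10g08440, 3 table loci from LOC_Os10g08474, had 10 reads in each emf2b library and none in WT, at least 12.8-fold higher against a floor of 3 reads over the WT group (edgeR adjusted p = 0.0266). LOC_Os03g63310, beside LOC_Os03g63280 at 3 table loci, had 14 and 15 reads in emf2b and 1 and 4 in WT (3.41 ± 0.84, edgeR adjusted p = 0.0386). LOC_Os10g01950, 5 table loci from LOC_Os10g01900, had 7 and 16 against 0 and 2 (4.22 ± 1.08, edgeR adjusted p = 0.0437). Each of these last 3 calls was lost in the fits without WT ACCC and without WT CGTA (highest edgeR or DESeq2 adjusted p 0.202, 0.232 and 0.237). LOC_Os03g63310 also lost its call with DESeq2 and without either emf2b library, and LOC_Os10g01950 with DESeq2 and without emf2b GAGT.

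**Figure D4:**
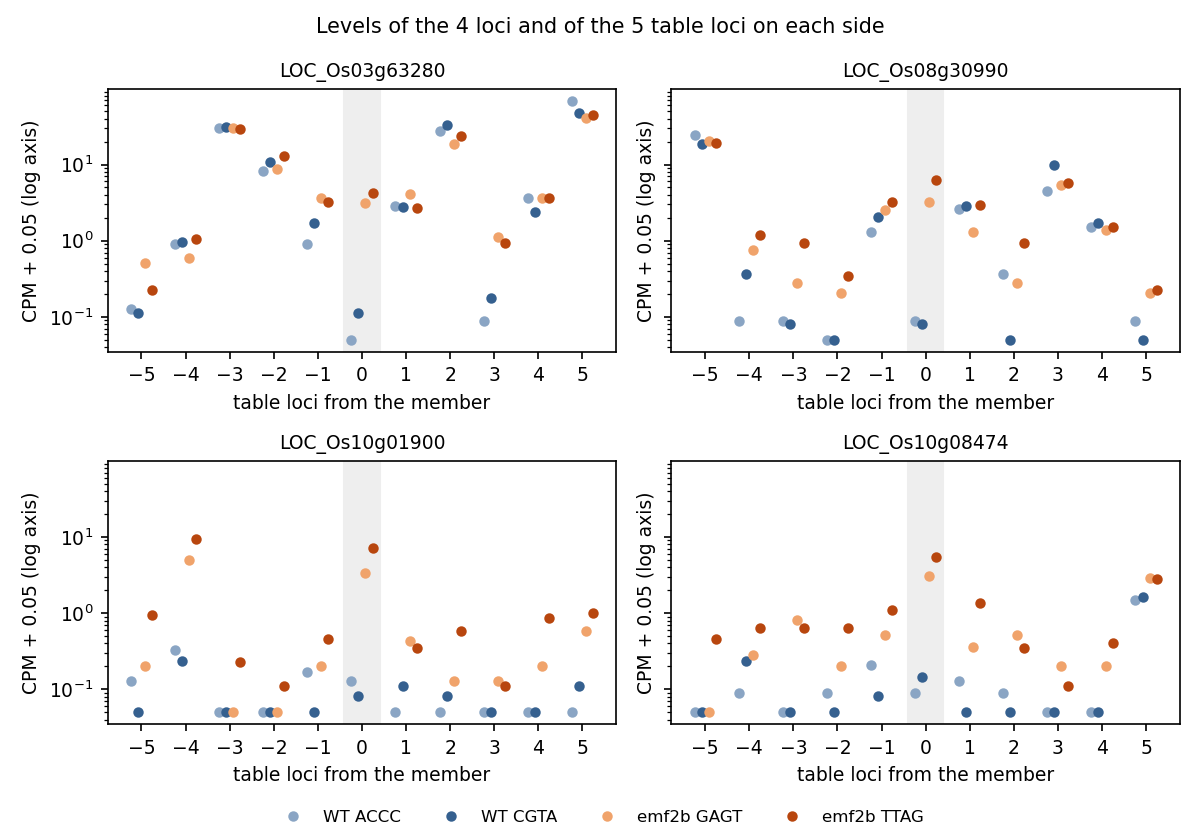
Level of each member (grey band at 0) and of the 5 table loci on each side by identifier order, as CPM + 0.05 on a log axis, 1 point per library. Beside LOC_Os03g63280 the WT and emf2b points of the well counted loci fall together while the member's own points are far apart, and beside LOC_Os10g01900 the locus at -4, LOC_Os10g01860, shows a like separation.

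Most weak neighbours also had higher levels in the mutant. Both emf2b libraries exceeded both WT libraries at 26 of the 40 neighbours, against 34.9% of all loci of the table. Of the 19 neighbours near silence in WT, 16 had this order, against 42.6% of all WT-silent loci, and of the other 21 neighbours 10 did, against 29.4%. Most neighbours with this order, and most of those near silence in WT, lay beside the chromosome 10 members. Weak counts leave many ties at 0, which count as overlap. Over the tested direct neighbours the median log2 difference was 0.50, and over those within 5 table loci 0.25, beside 0.01 over all tested loci. The direct-neighbour median was 1.76 with DESeq2, 1.67 with no low-count filter, 1.50 without WT CGTA and 1.02 without emf2b GAGT; over all loci the first 2 of these fits gave 0.73 and 0.62.

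None of the 4 loci was a known gene of rice development, metabolism or defence as listed. The list held 205 rice genes, from general knowledge, in 12 groups including MADS-box, KNOX and WOX, seed, hormone, anther and defence genes, and 188 were in the table. Of these, 51 were near silence in WT and 0 were members. Members were 0.0215% of all 18565 WT-silent loci, so 0 among 51 is near that share and nothing is read from it. Over all tested genes of the list, 15 of 104 rose and 13 fell in the same test, where 11.5% of all tested loci were called higher and 1.86% lower. A name is used below only where the reference gene table has it on the chromosome of the identifier, which held for 117 of the 205 names and 24 of the 51.

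The named genes near silence in WT were below the 4 loci in both emf2b libraries, except 1 gene in GAGT. DREB1C (LOC_Os06g03670), a transcription factor gene of cold and drought response, had 103 reads in emf2b GAGT, 3 in TTAG, and 1 and 0 in WT ACCC and CGTA. It was therefore at 7.96 CPM in one mutant library and at 0.177 CPM in the other, and failed the rule. Of the other 23 named genes, none reached 1 CPM in either emf2b library. Of the 27 listed loci whose names the reference table does not give in this way, LOC_Os08g04290, of the list's Polycomb group, was the highest. It was at 0.773 and 1.06 CPM in emf2b GAGT and TTAG and 0.0394 and 0 CPM in WT ACCC and CGTA. It was called higher (log2 difference 5.28 ± 1.09 SE, edgeR adjusted p = 0.0258), having entered the test through its emf2b reads. QHB, a WOX gene of the root quiescent centre, was at 0.309 and 0.709 CPM in emf2b GAGT and TTAG, and OsMADS20 at 0.232 and 0.591 CPM. Genes of the seed were as low: NF-YB1, a transcription factor gene of the endosperm, was at 0.0773 and 0.709 CPM, and the storage protein gene GluC at 0.0773 and 0.473 CPM. TDR, a tapetum regulator, had no read in either emf2b library, which allows 0.232 and 0.177 CPM. The florigen gene Hd3a had 0 and 1 reads in emf2b and none in WT.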

How the data were processed

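RNA was extracted from young panicles, 10 ng were amplified to cDNA and 40 cycles of single reads were sequenced, per the labels' protocols, which name wild-type tissue also for emf2b; groups follow the genotype label. The deposited table holds unnormalized read counts per gene model (1 model per locus), and the submitters' processing notes name TopHat2 2.0.5 and DESeq 1.10.1. For the counting tool, build, annotation and strand setting nothing is stated (not given in the sources used here). Antisense, overlapping or near-identical loci therefore cannot be told apart, and weak loci are uncertain for this reason. The columns carry barcodes and no replicate number. CPM is the count divided by the library total. A floor of 3 reads is 0.118 CPM in WT ACCC, 0.0935 in WT CGTA, 0.232 in emf2b GAGT and 0.177 in emf2b TTAG.

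Members and gene lists were chosen with earlier results of these data known. By the rule for named genes, all members are named when they are 20 or fewer; other loci are named for their place next to a member or a limit, or from the gene list, after their values were seen. Counts were fitted with edgeR 4.0.16 in R 4.3.3 (filterByExpr with minimum count 10 and total 15, TMM, quasi-likelihood F test, two-sided, 2 residual degrees of freedom, Benjamini-Hochberg over all loci tested), and the fit was tested on simulated data. The standard error is the absolute log2 difference divided by the square root of F. Alternatives were DESeq2 1.42.0, other scaling, no filter, other limits, thinning and leaving out each library. Read ratios carry exact binomial intervals and levels exact Poisson intervals, for counting error only. Names were checked against RefSeq assembly ASM3414082v1; no coordinates or sequences were used.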

Additional observations from a re-analysis of the deposited data

How the results depend on the processing

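The number of loci under the rule depended on its limits. It was 4 as defined and with TMM-scaled CPM, 3 with RLE-scaled CPM, which put LOC_Os10g08474 at 2.995 CPM in GAGT, and 8 after thinning to equal depth, where LOC_Os10g08474 dropped out with 0.155 CPM in WT CGTA. It was 37 at a WT limit of 0.2 CPM, 33 at an emf2b minimum of 2 CPM, and 0 at a minimum of 5 CPM or with no WT read allowed. With 1 library left out it ran from 14 (without emf2b TTAG) to 68 (without emf2b GAGT), with 19 without WT CGTA and 53 without WT ACCC. The reverse count was 0 except for 1 without WT ACCC. Over all loci, 2596 were called higher and 421 lower. With 1 library left out, 252 to 2191 were called higher and 37 to 493 lower, the lowest of each without WT CGTA; without WT ACCC the counts were 781 and 118, and without emf2b TTAG 1462 and 493, so 74.8% of calls were higher there against 86.0%. Without the low-count filter 4294 were higher and 1590 lower (73.0% higher), and DESeq2 gave 700 lower; these fits had a median log2 difference of 0.62 and 0.73 over all loci fitted.

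Direct neighbours called higher numbered 0, or 1 without the filter (beside 1 member); within 3 table loci on each side they were 2 (beside 2 members), and within 5 they were 4 (beside 3 members). The median log2 difference of direct neighbours was 0.50; it was 1.76 with DESeq2 and 1.67 without the filter, which include weaker loci, 0.21 within 3 and 0.25 within 5 table loci, and 0.59 to 1.50 with 1 library left out. No 2 members were adjacent or within 3 table loci. The cause of these shifts was not tested. No paired analysis was possible because the columns carry no replicate number. At this depth 1 read can decide membership on either side.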
